A study of Homo sapiens with 4 samples.

Results

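Chromatin accessibility was compared between MCF10A cells and the same cells transformed by HRAS G12V, and the loci described here are the distal regions that were lost. MCF10A is a line of human breast epithelial cells that is immortal but not transformed. The parental cells, here called MCF10A, received no oncogene, and the cells called G12V carry an added copy of HRAS with the G12V change, labelled H-RAS Gv12, delivered by a lentiviral vector under hygromycin selection. Per the study's methods, a GFP expression vector was introduced together with it. No parental control with vector or selection alone is described, so transduction, GFP and selection cannot be told apart from the oncogene. Both were grown in the same medium with EGF, insulin, hydrocortisone, cholera toxin and horse serum. ATAC-seq, in which the Tn5 transposase cuts open DNA, gave 2 libraries of each cell type and 1 peak list per library. When after transduction the G12V cells were taken is not given in the sources used here.

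Merging all peaks of the 4 lists that shared 1 bp or more gave 60886 regions on the autosomes and X, of which 49568 were distal, that is, they lay outside a window reaching 1000 bp before and 500 bp past the transcription start site (TSS) of every protein-coding or long non-coding gene. A distal region was called lost if it had a peak in both MCF10A lists and in neither G12V list. The members were therefore chosen by the presence and absence of peaks in these same lists, so their absence from G12V is not a result. This rule left 1183 distal lost regions, 2.39% of the distal regions, and a further 120 lost regions overlapped a promoter window. For comparison, 1700 distal regions were gained (both G12V lists and neither MCF10A list), 2390 were shared (all 4 lists) and 705 were crossed (1 MCF10A list and the G12V list of the other replicate number).

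Distal accessible loci are where most enhancers lie. Enhancers are short stretches that bind several sequence-specific transcription factors and act on promoters at a distance. In epithelial cells, proteins of the p53 family, p53, p63 and p73, bind a common element of paired half-sites, and p63 is known for opening enhancers in the basal layer of stratified and glandular epithelia. ZEB and SNAI proteins bind the E-box CAGGTG and are known as repressors of epithelial genes in the epithelial to mesenchymal transition (EMT), although other E-box factors read the same letters. AP-1 binds TGACTCA or TGAGTCA and is a main target of RAS signalling at enhancers.

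The sequences below were picked for holding the motifs on which the comparisons turn. Most members hold neither in the 150 bp window at the peak midpoint, to which the shares in this paragraph refer. Shares over the whole region were higher for both motifs and are given below. A p53 family match was present in 7.44% of members, a CAGGTG E-box in 17.9%, and 455 (38.5%) held none of the 12 motifs sought, against 48.8% of gained and 45.4% of shared regions. The first set gives the 10 members that match the p53 family element without a mismatch, each as the 20 bases of the match on the forward strand of hg19, with the invariant C and G of the 2 half-sites in capitals. The name gives the nearest protein-coding gene by TSS.
EVC, chr4:5775126-5775145: ggaCtaGcctgggCatGttc
ACVR2A, chr2:148140092-148140111: gggCtaGctcgggCatGctt
TMOD3, chr15:52156874-52156893: aggCaaGtttgaaCaaGttt
LRRIQ3, chr1:74139866-74139885: aagCttGctcagaCatGcct
PKDCC, chr2:41950060-41950079: aagCaaGcctagaCttGttc
MSI2, chr17:55273679-55273698: gggCtaGcctaggCttGttc
KCNK2, chr1:215175179-215175198: gaaCatGcttgggCttGcct
TGFB2, chr1:218774535-218774554: ggaCaaGtctgaaCttGccc
HDGFL1, chr6:22443318-22443337: gaaCatGcccaggCtaGcct
PREP, chr6:105820885-105820904: gagCaaGcccaggCtaGtct

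The second set gives 150 bp windows on the same strand, centred on the midpoint of the member's highest-ranking peak, with p53 family matches, AP-1 sites and CAGGTG or CACCTG E-boxes in capitals. Shown are the first member when ordered by the smaller MCF10A percentile (EVC), the one at rank 3 in that order (CHSY3), and the pair of members with 3 E-boxes in a window (PPP2R5A and TOMM20).
EVC, chr4:5775114-5775263: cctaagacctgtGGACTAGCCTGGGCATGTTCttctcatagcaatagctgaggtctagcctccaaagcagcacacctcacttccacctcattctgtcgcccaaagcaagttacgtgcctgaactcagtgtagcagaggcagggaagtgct
CHSY3, chr5:129865770-129865919: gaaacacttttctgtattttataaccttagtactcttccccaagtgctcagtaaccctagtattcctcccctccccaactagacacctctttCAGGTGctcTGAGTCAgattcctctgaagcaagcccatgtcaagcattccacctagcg
PPP2R5A, chr1:212434611-212434760: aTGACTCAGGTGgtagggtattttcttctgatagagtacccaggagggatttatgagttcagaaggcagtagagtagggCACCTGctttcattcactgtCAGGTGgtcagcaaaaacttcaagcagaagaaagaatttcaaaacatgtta
TOMM20, chr1:235243013-235243162: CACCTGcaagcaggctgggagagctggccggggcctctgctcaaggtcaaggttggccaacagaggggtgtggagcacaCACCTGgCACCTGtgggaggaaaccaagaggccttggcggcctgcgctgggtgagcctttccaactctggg

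The lists differed greatly in length, with 12902 and 34484 peaks in MCF10A replicates 1 and 2 and 14057 and 46698 in G12V replicates 1 and 2. Read numbers per library were not used here, so depth is unknown beyond the length of a list, and the 2 libraries labelled replicate 2 had the longer lists in both cell types. A promoter peak was present at 20.4% and 41.1% of protein-coding genes in MCF10A replicates 1 and 2 and at 22.2% and 43.8% in the G12V replicates. Of 11 epithelial markers, KRT17, LAMB3 and ITGB4 had a promoter peak in MCF10A replicate 1, LAMB3 and ITGB4 in MCF10A replicate 2, none in G12V replicate 1 and LAMB3 and KRT8 in G12V replicate 2. KRT5, KRT14, TP63, CDH1 and EPCAM had none in any library. Among blood, endothelial and fibroblast markers, CD14 had a peak in MCF10A replicate 2 and G12V replicate 2, and KDR, COL1A1 and PDGFRA in MCF10A replicate 2 only. Promoter peaks of these markers were therefore too few to check the labelled cell type.

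Each peak carries the MACS score, which is -log10 of the p-value that MACS gave the peak, multiplied by 10, and has a floor of 40 in every list. In MCF10A replicate 1 the members scored from 40.02 to 211.4 with a median of 65.3, and in MCF10A replicate 2 from 40.05 to 422 with a median of 81.9. Because scores grow with depth, each was also ranked as a percentile of its own list. The median member stood at percentile 51.3 in replicate 1 and 58.4 in replicate 2, whereas the shared distal regions stood at 62.8 and 82.2. Members were thus of middling rank, and below shared regions in both lists. Near the threshold, 168 members scored under 50 in replicate 1 and 123 did so in replicate 2. Just outside the rule, 2171 distal regions had both MCF10A peaks and a peak in G12V replicate 2 alone, with scores there from 40.2 to 565 and a median of 106, and 44 had a peak in G12V replicate 1 alone, with a median of 53.8. Of the 5788 distal regions with both MCF10A peaks, 20.4% were lost.

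**Figure D1:**
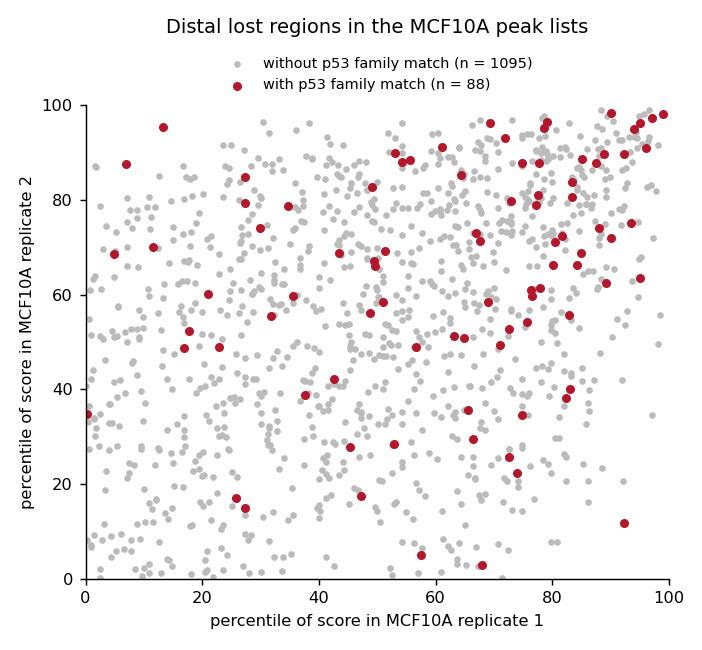
Percentile of each distal lost region's peak score in MCF10A replicate 1 (x axis) and replicate 2 (y axis), 1 point per region, with the 88 regions that match the p53 family element in red and the other 1095 in grey. Red points crowd towards the upper right, with median percentiles of 69.2 and 68.7 against 50.1 and 57.5 for grey points.

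The p53 family element had the largest odds ratio of the 14 features tested. Within the 150 bp window, 88 members (7.44%, 95% Wilson interval 6.08 to 9.08) matched with up to 3 mismatches outside the invariant bases, against 9 gained regions (0.529%), 30 shared regions (1.26%) and 7 crossed regions (0.993%). Over all distal regions the share was 1.43%. The odds ratio was 15.1 against gained regions (exact 95% interval 7.55 to 34.2, adjusted exact p = 6.05e-24) and 6.32 against shared regions (4.10 to 9.97, adjusted exact p = 1.23e-19), from Fisher's exact test (two-sided), adjusted by Benjamini-Hochberg over the family of 28 tests. The pattern read backwards without complementing, which has the same base content, matched 5 members (0.423%), 2 gained regions (0.118%) and 2 shared regions (0.0837%). These tests count loci of 4 libraries, which are not replicates of a condition. Without G12V replicate 2 the odds ratios were 5.28 and 2.47, without MCF10A replicate 1 they were 8.68 and 4.37, and without MCF10A replicate 2 they were 9.56 and 5.95.

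Matching regions were lost more often than others, whatever the number of mismatches allowed. Of the distal regions with both MCF10A peaks, 150 matched the element and 88 of these (58.7%, 50.7 to 66.2) were absent from both G12V lists, against 19.4% of the 5638 without a match. With up to 2 mismatches the lost share was 72.3% (47 of 65), with up to 1 it was 75% (21 of 28), and with none it was 76.9% (10 of 13, 49.7 to 91.8), so that the intervals of the 4 nested sets overlap. Among the members themselves, 10 matched perfectly, 11 with 1 mismatch, 26 with 2 and 41 with 3. No perfect match was found among the gained or the shared distal regions, with upper Wilson limits of 0.225% and 0.160% respectively. Over all distal regions the share of perfect matches was 0.0625% (31 regions), below both limits. The counts of 0 therefore do not set these classes apart from distal regions at large.

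**Figure D2:**
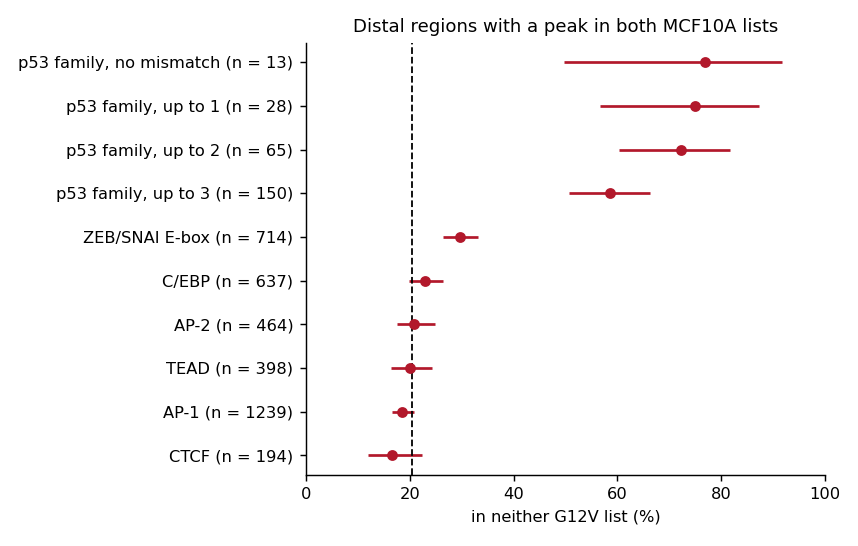
Share of distal regions with a peak in both MCF10A lists that had no peak in either G12V list, for regions holding each motif, with 95% Wilson intervals as bars. The dashed line marks 20.4%, the share over all 5788 such regions, and the p53 family points lie between 58.7% and 76.9%, above the E-box at 29.7%.

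Members with the p53 family match ranked higher than other members in the MCF10A lists. Their share rose from 4.39% through 5.74% and 7.12% to 12.5% over 4 equal groups of members ordered by the lower of their 2 percentiles. They seldom held an AP-1 site, with 5 of 88 (5.68%) against 20.5% of the other members. Introns held 56.8% of them against 58.6% of the other members, 23.9% against 21.1% lay beyond 100 kb of any TSS, and the median TSS distance was 38342 bp against 32318 bp. These values describe the members and were not tested.

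The member that ranked first by its lower percentile was chr4:5774607-5775781, in an intron shared by CRMP1 and EVC, the latter a ciliary component of Hedgehog signalling. It scored 211 in MCF10A replicate 1 and 353 in replicate 2 (percentiles 98.98 and 98.27), held a perfect p53 family match and lay 13433 bp from the nearest G12V peak. The region chr2:148139784-148140425, 462000 bp from the TSS of the activin receptor gene ACVR2A, scored 109 and 181 and combined a perfect match with an E-box. The region in TMOD3, which encodes a cap of actin filament ends, scored 90.6 and 94.4. The perfect match in PREP, by contrast, scored 44.6 in replicate 1, near the floor, and 166 in replicate 2. Perfect matches were thus spread over nearly the whole range of scores. Their nearest protein-coding TSS lay between 3916 bp (KCNK2, a potassium channel) and 523940 bp (LRRIQ3) away.

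Members near FN1 and CTNND1, both on the list of EMT and cadherin genes, also matched the p53 family element. The region at -51212 bp from the TSS of FN1, which encodes the matrix protein fibronectin, scored 106 and 111 with 3 mismatches. An intron of CTNND1, the gene of the cadherin partner p120-catenin, held a member with 2 mismatches that scored 49.7 and 71.0. Their percentiles in the MCF10A lists ran from 16.9 to 87.99.

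The E-box bound by ZEB and SNAI factors was the second motif that separated the lost regions. CAGGTG, or CACCTG on the other strand, was present in 212 members (17.9%, 15.8 to 20.2), against 137 gained regions (8.06%), 224 shared regions (9.37%), 83 crossed regions (11.8%) and 11.4% of all distal regions. The odds ratio was 2.49 against gained (1.97 to 3.16, adjusted exact p = 3.27e-14) and 2.11 against shared regions (1.71 to 2.60, adjusted exact p = 5.32e-12, Fisher's exact tests). Searching the whole region in place of the window, 51.6% of members and 52.3% of shared regions held the E-box (odds ratio 0.969, adjusted exact p = 0.781). Shared regions were longer, with a median of 988.5 bp against 616 bp. Without G12V replicate 2 the odds ratio against gained regions was 1.45.

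No other form of the CANNTG E-box showed such a gap. CACATG was present in 13.4% of members, 11% of gained and 9.54% of shared regions. CAAATG was present in 10.5%, 11.1% and 9.25%, and CAGATG in 10.9%, 12.9% and 11.2%. Boxes of the CAGGTG form also recurred within a window, with at least 2 in 26 members (2.20%) against 9 gained regions (0.529%). Members with the E-box held an AP-1 site more often than members without it, at 28.8% against 17.4%, and 12 of them also held a p53 family match. The lost share of distal regions with both MCF10A peaks was 29.7% with the E-box and 19.1% without it. Over the same 4 groups, from the lowest to the highest percentile, the E-box was present in 19.3%, 18.9%, 20.0% and 13.5%, without the rise seen for the p53 family match.

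All words of 6 bases were also compared, without a chosen motif. Of 2080 such words, counting each with its reverse complement, 42 (2.02%) were more frequent in lost than in gained windows and 24 (1.15%) less frequent, at an adjusted p under 0.05 by Fisher's exact test with Benjamini-Hochberg adjustment over all 2080. CACCTG ranked first by p against gained windows and at 4 against shared windows. All 8 words that hold CAGGT or its complement were more frequent in lost windows in both comparisons, with 6 of them among the first 10 against gained windows and 3 against shared windows, where the others ranked from 21 to 155. TACCTG, for instance, was present in 11.3% of members, 4.18% of gained and 5.19% of shared windows (odds ratio 2.93 against gained, adjusted exact p = 2.48e-10). As a description chosen after these values were seen, 44.5% of members (526) held CAGGT or ACCTG, against 23.9% of gained, 28.7% of shared and 29.9% of crossed regions. GGCATG, part of the p53 family half-site, was present in 14.5% of members and 9.12% of gained regions (adjusted exact p = 0.00223). Words less frequent than in gained windows included TTATTT, in 9.81% of members against 16.2%.

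Against shared windows the words that differed were mostly of another kind. There, 52 words (2.50%) were more and 140 (6.73%) less frequent in lost windows, and 133 of those 140 held the dinucleotide CG. GGCGGG, for example, was present in 4.23% of members and 11.5% of shared windows (adjusted exact p = 1.73e-10). An alternative start site of an annotated transcript lay at 17.8% of shared regions and at 6.26% of members (74 regions).

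**Figure D3:**
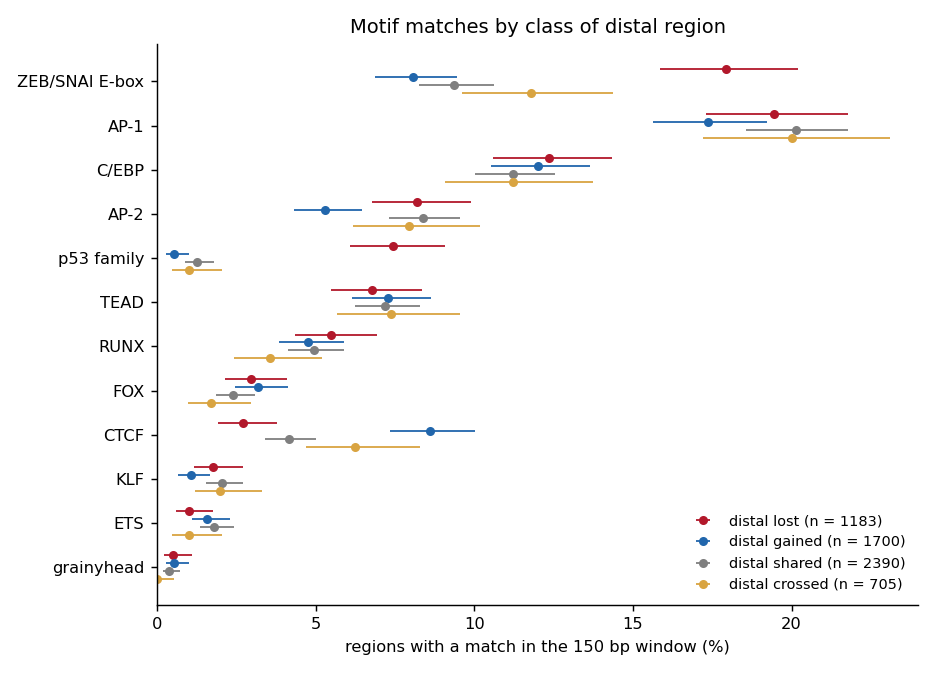
Share of distal regions with at least 1 match to each of 12 motifs in the 150 bp window, for lost, gained, shared and crossed regions, with 95% Wilson intervals as bars. Lost regions stand to the right of all other classes for the p53 family (7.44%) and the ZEB/SNAI E-box (17.9%), and gained regions to the right for CTCF (8.59%).

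CTCF, the insulator protein that organizes chromatin loops, had the opposite pattern. Its motif was found in 32 members (2.70%) and in 146 gained regions (8.59%), an odds ratio of 0.296 (0.194 to 0.440, adjusted exact p = 9.48e-11). Against shared regions (4.14%) the odds ratio was 0.643 (0.415 to 0.974, adjusted exact p = 0.115). With an equal number of best peaks in every list, the shares were 2.62% and 4.35% and the difference from gained regions no longer passed the test (odds ratio 0.592, adjusted exact p = 0.0987). Leaving out MCF10A replicate 1 gave an odds ratio of 0.481 against gained regions, and leaving out MCF10A replicate 2 gave 0.686.

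The AP-2 motif, GCCNNNGGC, was present in 8.20% of members, 5.29% of gained and 8.37% of shared regions (odds ratio against gained 1.60, adjusted exact p = 0.00968). The odds ratio did not pass with equal list sizes (1.43, adjusted exact p = 0.133), within strata of GC content (1.44, adjusted p = 0.107 by the Cochran-Mantel-Haenszel test, which is not exact), or without MCF10A replicate 1 (1.29, adjusted exact p = 0.0539) or replicate 2 (1.19, adjusted exact p = 0.136), but stayed above 1 in each. AP-1 sites were found in 19.4% of members, 17.4% of gained and 20.1% of shared regions, with odds ratios of 1.15 (0.945 to 1.397) and 0.958 (0.800 to 1.14) that did not pass the test. The AP-1 ratio against gained regions depended on the libraries, at 0.643 without MCF10A replicate 2 and 2.11 without G12V replicate 2. None of the tests passed for TEAD (ACATTCC or GCATTCC), grainyhead (AACCGGTT, AACCAGTT, AACTGGTT or AACTAGTT), C/EBP (TTGCNNAA), RUNX (TGTGGTT), FOX (TGTTTAC), KLF (GGGTGTGG) or ETS (ACCGGAAGT with up to 1 mismatch outside GGAA). All patterns were sought on both strands. A match is a run of letters in the reference sequence and does not show that the factor was bound.

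Many of the matches lay below the peak midpoint. AP-1 sites of all distal regions had a median position 55.5 bp towards lower coordinates from the peak midpoint (-55.5 bp), with 15497 below and 6502 above it within 200 bp. In members, p53 family matches had a median of -62.5 bp, with 173 below and 70 above the midpoint, and AP-1 sites one of -48.5 bp. The fewer p53 family matches of gained regions had a median of -5.5 bp (14 below, 12 above) and those of shared regions one of -26 bp (52 below, 39 above). E-boxes of members were more evenly placed, at a median of -20.5 bp, and those of gained and shared regions at 0 and 7 bp. The offset was common to AP-1 sites of the lost, gained and shared classes, and its cause was not tested. With the window moved by 75 bp, an alternative chosen after this was seen, 9.81% of members, 0.412% of gained and 1.51% of shared regions matched the p53 family element. In the whole region the match was present in 21.98% of members, 2.41% of gained and 6.90% of shared regions.

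**Figure D4:**
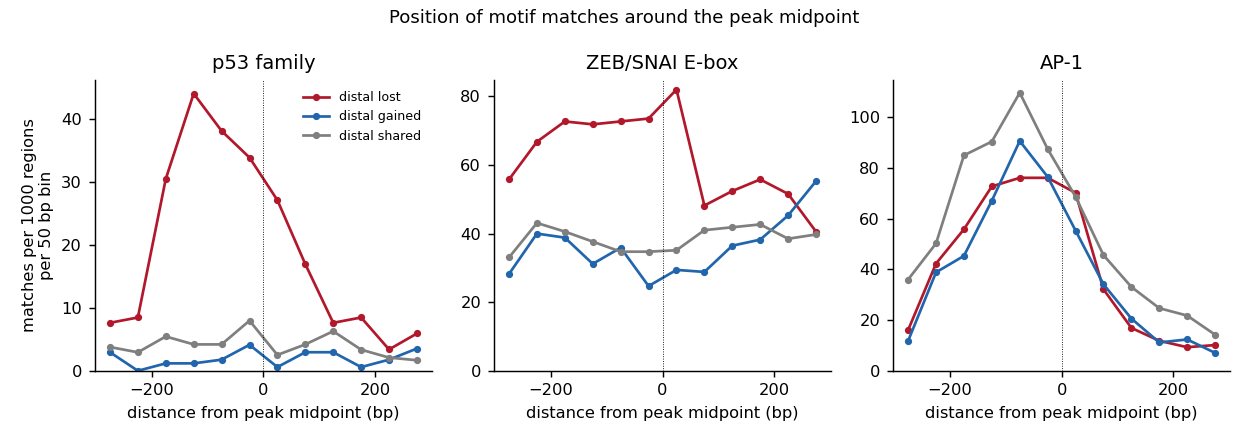
Matches per 1000 regions in 50 bp bins from 300 bp below to 300 bp above the peak midpoint, for the p53 family, the ZEB/SNAI E-box and AP-1 in lost, gained and shared distal regions. The p53 family line of lost regions peaks at 43.96 per 1000 in the bin at -125 bp, the E-box line of lost regions stays between 66.8 and 82.0 from -225 to 25 bp, and AP-1 peaks below the midpoint in all 3 classes.

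No test of position relative to genes passed. Introns held 692 members (58.5%), against 58.2% of gained and 55.5% of shared regions, with odds ratios of 1.013 (0.869 to 1.18) and 1.13 (0.980 to 1.31) that did not pass the test. A further 428 members (36.2%) were intergenic, 36 lay in non-coding exons, 17 in UTRs and 10 in coding exons. The median distance from a member to the nearest TSS was 32793 bp, against 33540 bp for gained and 32983.5 bp for shared regions. More members than other regions lay beyond 100 kb of any TSS, 252 (21.3%) against 17.8% of gained and 18.1% of shared regions, but neither difference passed (odds ratios 1.25 and 1.22, adjusted exact p = 0.0743 and 0.0840). Among the better-scoring 50% of each list the first of these did pass, at 25.8% against 17.5% (adjusted exact p = 0.000596). Within introns of protein-coding genes, the host gene was also the nearest gene by TSS for 355 of 517 members (68.7%).

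The lost regions were spread over many genes. They had 968 nearest protein-coding genes, of which 810 were nearest to 1 member and 36 to at least 3. MCTP2, a calcium-binding membrane protein gene, was nearest to 48 distal regions, of which 6 were members, at 393878 to 650921 bp. ARRDC4, TLL1, FLRT3, BCL11B and SUCLG1 were nearest to 5 members each, of 34, 19, 27, 31 and 27 distal regions. PALMD, MGAT5, LRRTM1, TMEM51, SLITRK6, HS6ST1 and MAT2B were among those nearest to 4, of 14, 16, 33, 31, 24, 22 and 59. MCTP2 was also nearest to 3 gained and 5 shared regions, and MAT2B to 3 gained and 6 shared regions. The genes were picked for their counts of members, which are not a test. Over the 15 leading genes the mean distance from members to the TSS ran from 23107 bp at FAT2, which had 3 members, to 965488 bp at SUCLG1.

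Some host genes held several members in their introns. MACROD2, a gene of 2058 kb, held 6 of its 38 intronic distal regions as members, and KAZN, which encodes the desmosome-associated protein kazrin, held 5 of 43. MGAT5, an enzyme that branches N-glycans, held 4 of 12 and the neuronal alpha-catenin gene CTNNA2 4 of 26. PREP held 3 of 10, TLL1 3 of 8, FSTL4 3 of 10, FAT3 3 of 13 and MGST1, a membrane glutathione transferase gene, 3 of 6. These last 5 genes had no gained and no shared distal region in an intron. With 1700 gained and 2390 shared among 49568 distal regions, few would fall in genes holding 6 to 13. The absence is therefore not a trait of these genes. These genes were named for their counts, which are therefore not a test.

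Genes within reach of a lost region were counted against all protein-coding genes. A member lay within 100 kb of the TSS of 1412 of 20090 protein-coding genes (7.03%), a gained region of 10.3% and a shared region of 12.7%. Both a lost and a gained region were within reach of 259 genes, 18.3% of the former and 12.5% of the latter. Beside 7.03%, the share of each list is given below as a description, with no test.

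The desmosome genes, which join epithelial cells through intermediate filaments, had the highest share, with 5 of 14 (35.7%) near a lost region and 0 of 14 near a gained region. The plakophilin gene PKP1 had 3 members within 100 kb of its TSS, which scored from 51.6 to 72.5 in MCF10A replicate 1 and from 41.0 to 106 in replicate 2. DSC1, DSC2 and DSC3, the desmocollin genes, counted through a single region in a UTR of DSC2 that scored 63.3 and 60.5. The region near PKP3 was weak, with 41.7 and 55.2. The 5 genes thus rested on 5 regions, 3 of them at PKP1.

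The other adhesion and matrix lists held fewer. Of the EMT and cadherin genes, 3 of 15 (20.0%) had a lost region, namely FN1, CTNNB1 and CTNND1, the last with 2, and 1 had a gained region. The second CTNND1 member, also intronic, scored 44.8 and 114. Of the hemidesmosome and laminin-332 genes 1 of 10 had a lost region, while 3 had a gained region. Of the actin and adhesion genes, ZYX and ITGB6 did (2 of 18), while 5 had a gained region. None of 11 keratin genes had a lost, gained or shared distal region in reach.

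Among signalling lists, the Wnt genes had 5 of 19 (26.3%) near a lost region and 3 near a gained region. These were the ligand genes WNT3A, WNT7A and WNT10A, the receptor gene FZD8 and the nuclear effector gene TCF7L2, whose intronic member scored 110 and 93.7. WNT7A and WNT10A had members near the floor, at 40.3 and 45.0 and at 42.1 and 45.1. The RAS-ERK feedback list had 2 of 15, the phosphatase gene DUSP1 and the RAS GTPase-activating protein gene NF1, while 4 had a gained region. HBEGF was the only one of 14 EGF receptor and ligand genes, and BMP7 the only one of 18 TGF-beta family genes, while 4 genes of each of these lists had a gained region. No Notch pathway gene (0 of 16) and no AP-1 subunit gene (0 of 10) had a lost region within 100 kb, while 3 and 2 had a gained region.

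Of the epithelial transcription factors, 3 of 20 (15%) had a lost region, with ELF3 and TFAP2C among them, and 3 had a gained region. The ELF3 member scored 161 in MCF10A replicate 1, among the highest of that list, but 59.2 in replicate 2. Of 30 p53 target genes, XPC, PHLDA3 and CCNG1 had a lost region and 4 had a gained region. None of the 3 lost regions matched the p53 family element in the 150 bp window. Thus none of the 88 members with the match in the 150 bp window lay within 100 kb of the TSS of these 30 genes.

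Lost regions sometimes lay side by side. Within 50 kb of another member were 158 members (13.4%), and 26 of them formed 8 runs of at least 3. Of gained and shared regions, 12.2% and 24.8% lay as near to another of their own class. Such a share also depends on the number of regions in a class, here 1183 lost, 1700 gained and 2390 shared. The classes are therefore not directly comparable. The order against gained regions turned with the limit, at 9.38% against 6.82% within 25 kb and 19.9% against 22.5% within 100 kb. The 5 runs described here are those with the most members and then the shortest spans, and 2 of them had 4 members. One crossed PKP1, the troponin gene TNNT2 and the ladinin gene LAD1 at chr1:201264950-201366845, a span of 101.9 kb. It held no gained and no shared region. Of its 7 regions, 4 were the members, which by the rule have no G12V peak. Among the others, 2 had a G12V peak, each in a single G12V list. The other, at chr1:100010002-100128662 by PALMD, held 1 gained region among 10 regions, of which 5 had a G12V peak. Its inner members scored 114 and 285, and 56.1 and 279, and its outer members 49.4 and 79.3, and 74.7 and 41.9.

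The runs of 3 members were within or beside single genes. In PREP, 3 intronic members lay within 20.4 kb, of which 1 held a perfect p53 family match and the others an AP-1 site. At FAT2, an atypical cadherin of epithelia, 3 members spanned 48.1 kb, the intronic one with a p53 family match (47.1 and 101) and the upstream ones without (93.4 and 79.3, and 87.2 and 64.2). In TLL1, 3 intronic members spanned 50.5 kb. Of 4 regions in the PREP run, 6 in the FAT2 run and 8 in the TLL1 run, 1, 2 and 3 respectively had any G12V peak, and none was gained or shared. These totals include the 3 members of each run, which by the rule have no G12V peak. With so few regions in a run, a lack of gained or shared ones is not a trait of the runs. The runs were picked for their members, so their make-up is a description.

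**Figure D5:**
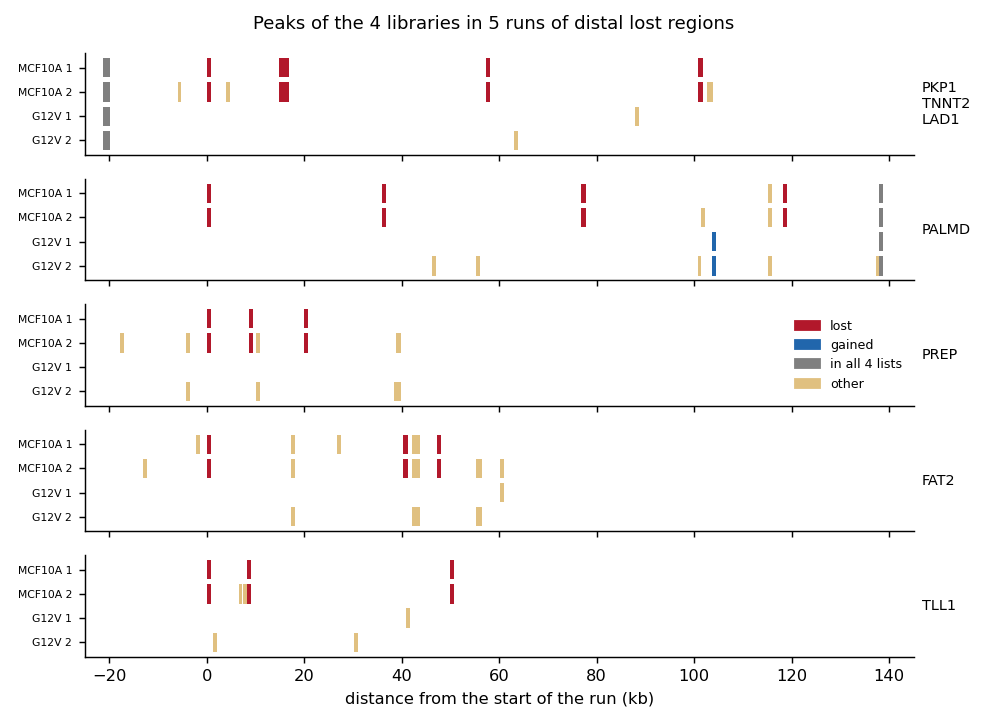
Peaks of the 4 libraries in 5 runs of distal lost regions, by distance in kb from the start of each run, with 1 row per library and narrow peaks widened to 0.8 kb for display. Members (red) appear only in the MCF10A rows, as the rule requires. Regions with a G12V peak numbered 2 in the PKP1 run, 5 in the PALMD run, 1 in the PREP run, 2 in the FAT2 run and 3 in the TLL1 run. Further G12V peaks lie in the flanks of some runs.

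Counting all members, those in runs included, the nearest neighbour was more often lost for lost than for gained regions. Taking the distal lost and gained regions together, 41.0% were lost, the nearest neighbour was lost for 51.4% of lost regions and for 34.9% of gained regions. Neighbouring loci share a chromosome and were not tested. By chromosome, lost regions made up 66.7% of lost and gained regions on chromosome 16 (34 and 17) and 61.2% on chromosome 18 (30 and 19), but 16.1% on chromosome 17 (9 and 47). As a share of distal regions with both MCF10A peaks, 30.6% were lost on chromosome 16 and 11.7% on chromosome 17. These shares by chromosome were not tested.

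The nearest G12V peak was usually not far. Its median distance from a member was 13594 bp, and 92 members (7.78%) had one within 1 kb and 30 within 200 bp. Of the 10 members with the highest lower percentile, the one at rank 3 (chr5:129865332-129866357, scores of 154 and 410) had one 493 bp away. That region held an E-box, an AP-1 site and a TEAD site in 1 window. The remaining leading members included regions near ABCA12, a lipid transporter of keratinocytes (138 and 275), near the protocadherin gene PCDHGC5 (131 and 245) and in an intron of ADAMTS19, a secreted metalloprotease gene (132 and 219). A p53 family match was present in 4 of these 10, and 6 of the 10 were intergenic.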

How the data were processed

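ATAC-seq peak lists of 4 libraries were analysed, 2 of MCF10A and 2 of G12V. Per the study's methods, the authors aligned reads to hg19 with Bowtie, kept unique reads, adjusted read starts to the centre of the transposon and called peaks with MACS. The methods describe pooling the replicates before peak calling, whereas the deposited lists are 1 per library. The deposited value of a peak is the MACS score, and no list held a score below 40. Read counts were not used here, so depth is known only through list length, and Wilson intervals cover counting error over regions only.

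Peaks were merged (1 bp overlap), placed against the GENCODE annotation on GRCh37 and sorted into classes by the lists they came from. Motifs were sought on both strands of 150 bp windows. The p53 family pattern (20 bases, up to 3 mismatches outside the invariant bases) and the CTCF pattern (14 bases, up to 1) are given by name. Each share was tested with Fisher's exact test (two-sided), and the 28 p-values were adjusted by Benjamini-Hochberg. GC strata were combined by a Cochran-Mantel-Haenszel test. Regions are loci of the same 4 libraries and not replicates, so p-values do not measure the spread between cultures. The scripts were tested on simulated data. Named regions were the 10 with the highest lower percentile, the perfect p53 family matches, 5 runs of neighbouring members, and the leading genes by count. Some genes that meet these rules are not reported here. Listed genes with a single member were named after their values were seen. Members and lists were chosen with earlier results of these data known. The comparison of 6-base words, transcript start sites, the moved window, and the E-box and CTCF shares under the p53 family's alternatives were added after seeing the data. Python 3.11.15, pandas 2.3.3, scipy 1.17.1, statsmodels 0.14.6, pysam 0.24.0 and matplotlib 3.10.9 were used.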

Additional observations from a re-analysis of the deposited data

How the results depend on the processing

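The p53 family odds ratio passed the test in all 16 settings tried, from 5.28 to 35.1 against gained and from 2.47 to 12.3 against shared regions. The E-box ratio passed in all 14 settings against gained regions (1.45 to 2.82) and in 13 of 14 against shared regions. The exception was the whole region in place of the window, where it turned to 0.969. The number of distal lost regions was 655 with the better-scoring 50% of each list, 9587 and 2790 with MCF10A replicate 1 or 2 left out, and 1228 and 3396 with G12V replicate 1 or 2 left out.

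The replicate numbers of the labels name no shared batch, so they share only a number. A replicate block, which compares the libraries of each number with each other, gave 5738 lost regions for number 1 and 9805 for number 2. Ratios were pooled over both numbers by the Cochran-Mantel-Haenszel method. Against gained and shared regions they were 7.18 and 3.74 for the p53 family and 1.63 and 1.61 for the E-box. Under this block the ratio of regions beyond 100 kb against gained regions turned to 0.979, and 9 tests of the 11 other motifs passed. That count was 4 as reported, 2 with equal list sizes, 14 with the whole region and between 5 and 10 without 1 library.

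Regions beyond 100 kb passed against gained regions with the better-scoring 50% (1.64), with a 50% overlap (1.28) and with transcript start sites (1.51) and without G12V replicate 2 (1.21), and the ratios without a library ran from 1.02 to 1.21. Against shared regions they passed with protein-coding start sites alone (1.19) and without G12V replicate 2 (1.21), and the ratios without a library ran from 0.980 to 1.21. The intron ratio against gained regions turned to 0.968 with equal list sizes and ran from 0.982 to 1.03, and against shared regions it passed with protein-coding start sites (1.22). CTCF against gained regions did not pass with equal list sizes (0.592). Against shared regions CTCF passed with protein-coding start sites (0.627), the whole region (0.448) and the moved window (0.517), and ran from 0.765 to 1.13. Genes of the lists in reach numbered 26 at 100 kb, 16 at 50 kb and 40 at 200 kb, where 1412, 712 and 2598 of all 20090 protein-coding genes were in reach. Members near another member numbered 158 at 50 kb, 111 at 25 kb, 236 at 100 kb and 107 with equal list sizes.

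Ratios that did not pass as reported changed direction with equal list sizes for AP-1 (1.02) and KLF (1.09) against shared and C/EBP (0.882) and FOX (1.03) against gained regions. With the whole region, against shared regions, grainyhead (0.588), C/EBP (0.600), RUNX (0.715) and FOX (0.750) did so, and within GC strata grainyhead against gained (1.05) and AP-2 against shared regions (1.27). Leaving out a library gave ranges that cross 1 against gained and shared regions for AP-1 (0.643 to 2.11, 0.621 to 1.07), TEAD (0.733 to 1.15, 0.7995 to 1.12), grainyhead (0.793 to 1.07, 0.872 to 2.16), C/EBP (0.800 to 1.28, 0.846 to 1.19), RUNX (0.948 to 1.35, 0.809 to 1.14) and KLF (0.988 to 1.76, 0.779 to 1.09), against gained regions for FOX (0.788 to 1.35) and against shared regions for AP-2 (0.848 to 1.04). The causes were not tested. List length differs more between the replicates of a cell type than between the cell types, and absence from a list means only that no peak reached the floor of 40.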
